A study of Mus musculus with 46 samples.

Results

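The response to PTP-r in liver was set against the response to the same agent in white adipose tissue (WAT) of obese mice, gene by gene, in all 46 of the 46 libraries of the series. The libraries were taken by their labels alone: each was assigned to 1 of 8 groups of organ, sex and treatment, and the quantity tested was the PTP-r effect in liver (PTP-r relative to vehicle, averaged over females and males) minus the same effect in WAT. All animals were wild-type C57Bl/6 mice aged 7 weeks at the start, kept on a high-fat diet for 21 weeks, so every control was obese as well. Vehicle (PBS) or PTP-r at 1 mg/kg/day was given under the skin for 5 weeks, starting in week 16. Each group had 6 libraries of polyA RNA, except the male vehicle group, which had 5 in either organ. PTP-r is a code name, and the series title refers to a prohibitin peptide of mixed chirality with effects on obesity. There was no lean group and no group with another peptide, the fat depot was not named, and the labels do not say that each library came from a separate animal, so the p-values rest on the spread among libraries, which may be technical.

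Liver and adipose tissue are the main sites of lipid handling in obesity, and both are also immune organs. Hepatocytes secrete acute-phase proteins such as serum amyloid A when cytokines act on them, resident and recruited macrophages produce chemokines, and adipocytes store triglyceride in a collagen-rich matrix threaded by capillaries. Prohibitins sit in the inner mitochondrial membrane, and in the vessels of adipose tissue prohibitin at the cell surface has been used as an address for targeting peptides.

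The summed count on genes was 20266425 to 57518893 per liver library and 20991069 to 32219751 per WAT library. The organ labels fitted the defining markers: Alb, which encodes albumin, was at 98680 CPM (read counts scaled to a common library total) or more in every liver library and at 323 CPM or less in every WAT library, and Adipoq, which encodes adiponectin, was at 1170 CPM or more in every WAT library and at 3.43 CPM or less in every liver library. In 8 libraries, summed markers of skeletal muscle, exocrine pancreas or epididymis were more than 4 times the organ's median and above 40 CPM. They were female PTP-r libraries 1 and 11 and female vehicle library 12 of liver, and female PTP-r libraries 1 and 5, male PTP-r library 2 and male vehicle libraries 3 and 9 of WAT. Summed B and plasma cell markers exceeded 4 times the organ's median in female vehicle library 10 of liver and in male PTP-r library 7 of WAT. Some counts below are also given without these libraries. Liver markers were not used to leave libraries out. Among WAT libraries the liver markers Hnf4a and Cps1 reached 24.4 CPM (median 0.144) and 13.3 CPM (median 0.182), against a highest Alb of 323 CPM (median 30.6). The source of these reads was not tested.

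PTP-r effects that differed between the organs were found among inflammatory, endothelial, matrix and mitochondrial genes. With edgeR's quasi-likelihood test, 1032 of 19135 genes passed an adjusted p of 0.05 for the organ difference: 572 had a liver effect above the WAT effect (2.99% of genes tested) and 460 a liver effect below it (2.4%), and 4011 genes had an unadjusted p under 0.05. In the same fit PTP-r raised 440 genes in liver (2.3%) and lowered 324 (1.69%), and in WAT it raised 1327 (6.93%) and lowered 1026 (5.36%). Among the 572 genes, 235 rose in liver without a call in WAT, 179 fell in WAT without a call in liver, 19 rose in liver and fell in WAT, and 139 had no call in either organ. Among the 460 genes, 92 fell in liver only, 277 rose in WAT only, 8 fell in liver and rose in WAT, and 83 had no call in either. By contrast, 22 genes rose in both organs and 47 fell in both, and 0 of these 69 passed for the organ difference. Of the 764 genes called in liver, 96 (12.6%) were also called in WAT, close to the 12.3% of all genes called there, and these 96 were 4.08% of the 2353 called in WAT, against 3.99% of all genes called in liver.

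Differences were mostly moderate in size. The median fold among the 1032 genes was 1.64, and 327 exceeded 2-fold. Most did not rest on a gene silent in 1 organ: 566 had a mean of at least 5 CPM in both organs, 88 were under 1 CPM in WAT and 126 under 1 CPM in liver. Across the 11918 genes with at least 1 CPM in both organs, Pearson's r between the liver effect and the WAT effect was -0.02, a description over genes, which are not independent replicates. The joint fit gives both organs 1 estimate of the spread for each gene, and this bears on the calls within an organ: fitted alone, liver had 1205 calls in place of 764, and WAT had 1258 in place of 2353. WAT also had 1373 calls without male PTP-r library 1 and 1467 without male vehicle library 4.

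**Figure D1:**
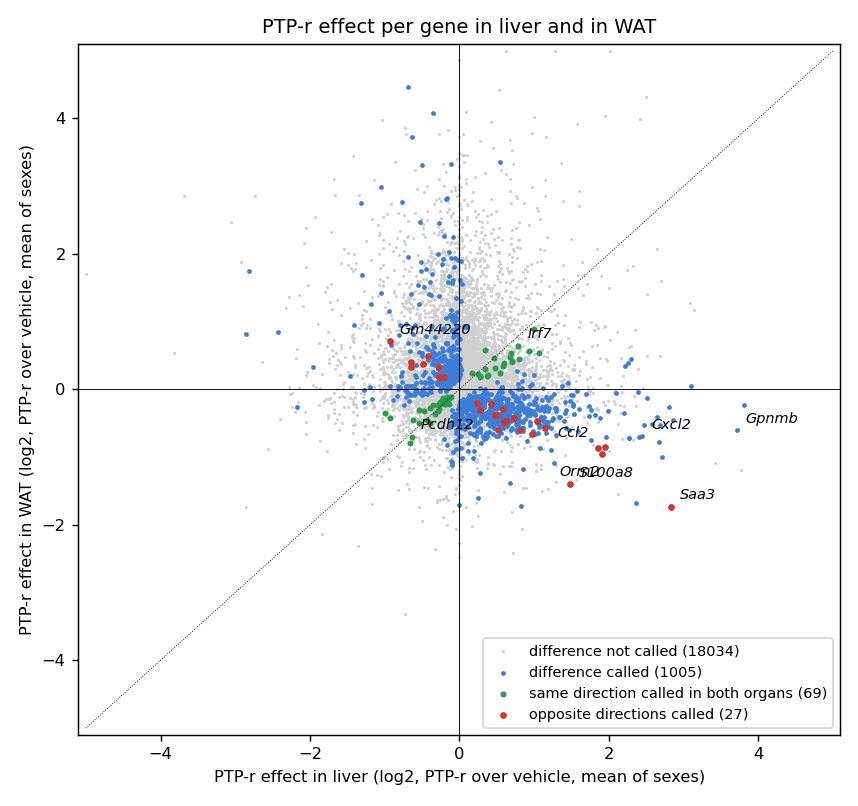
Each point is 1 of 19135 genes, with the log2 PTP-r effect in liver on the horizontal axis and in WAT on the vertical axis, both relative to vehicle and averaged over the sexes; values beyond 5 are drawn at the edge and the dotted line marks equal effects. The 27 genes called in opposite directions (red) lie mostly at lower right, led by Saa3, and the 69 genes called in the same direction (green) lie along the dotted line.

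The 27 genes called in opposite directions, 19 of which rose in liver, included Saa3, Orm2, Ccl2, S100a8, Ccr2 and Cxcr4. In all 27 the organ difference itself passed and kept its sign with DESeq2, with limma voom, under both other scalings and without the libraries described above. The 27 were picked by their calls in the same counts, so these refits are not separate support. When each organ was fitted alone, 12 of the 27 were called in both organs. The first was Saa3 (ENSMUSG00000040026, chr7:46711998-46715700, minus strand, GRCm38), a serum amyloid A made outside the liver as well as in it. Liver Saa3 was 2.57 to 6.47 CPM (median 3.77) in the 11 vehicle libraries and 11.1 to 54.7 CPM (median 38.5) in the 12 PTP-r libraries, which did not overlap. In the 5 male vehicle livers the values were 6.1, 3.04, 3.14, 2.68 and 3.64 CPM. WAT went the other way, from 6.01 to 44.8 CPM (median 21.3) under vehicle to 2.94 to 19.8 CPM (median 5.03) under PTP-r. All 6 female PTP-r libraries of WAT lay below all 6 of their vehicle libraries, and among male WAT libraries the highest PTP-r value, 19.8 CPM, exceeded the lowest vehicle value, 18.8 CPM. The log2 effect was 2.84 (SE 0.28) in liver and -1.73 (SE 0.26) in WAT, a difference of 4.57 with a 95% interval of 3.81 to 5.33 and an edgeR adjusted p of 5.94e-11.

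Promoters of genes from different classes of response are shown to let the sequence at the start site be compared: Saa3 for opposite directions, Cxcl2 for a rise in liver alone, Serpina3n for a fall in WAT alone and Gbp3 for a rise in both organs (Gbp3 was picked after its values were seen). Each is the 250 bases before the start of the gene in RefSeq on GRCm38.p6, read 5′ to 3′ on the gene's strand, and capitals mark matches on either strand to GGGNN followed by TTTCC (NF-kB-like), TTGCNNAA (C/EBP-like) or GAAANN followed by GAAA (ISRE-like, the element of interferon-induced genes). The windows are chr7:46715677-46715926 for Saa3, chr5:90903649-90903898 for Cxcl2, chr12:104406458-104406707 for Serpina3n and chr3:142559794-142560043 for Gbp3.
Saa3: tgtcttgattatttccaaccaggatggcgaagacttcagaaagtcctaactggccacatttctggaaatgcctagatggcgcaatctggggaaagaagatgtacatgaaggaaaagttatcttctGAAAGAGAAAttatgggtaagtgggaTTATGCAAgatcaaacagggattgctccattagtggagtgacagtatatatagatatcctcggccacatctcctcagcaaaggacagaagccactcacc
Cxcl2: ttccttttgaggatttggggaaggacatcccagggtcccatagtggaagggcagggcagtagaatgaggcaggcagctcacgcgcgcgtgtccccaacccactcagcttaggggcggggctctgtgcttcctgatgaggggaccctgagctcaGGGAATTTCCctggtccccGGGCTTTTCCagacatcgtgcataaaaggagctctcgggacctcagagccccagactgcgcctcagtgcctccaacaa
Serpina3n: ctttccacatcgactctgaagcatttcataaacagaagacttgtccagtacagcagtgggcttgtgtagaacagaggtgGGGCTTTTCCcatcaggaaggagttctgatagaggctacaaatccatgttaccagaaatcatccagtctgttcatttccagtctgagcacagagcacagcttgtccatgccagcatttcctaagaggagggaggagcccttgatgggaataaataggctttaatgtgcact
Gbp3: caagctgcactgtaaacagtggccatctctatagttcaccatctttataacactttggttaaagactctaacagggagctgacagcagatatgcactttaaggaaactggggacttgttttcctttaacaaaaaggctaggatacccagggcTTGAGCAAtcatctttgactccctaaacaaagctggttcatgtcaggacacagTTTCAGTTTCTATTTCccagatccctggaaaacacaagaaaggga

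In Saa3 a C/EBP-like match began 99 bases before the start and an ISRE-like match 125 bases before it. Cxcl2 held a pair of NF-kB-like matches, 97 and 78 bases before the start, and Serpina3n held 1 at 171 bases. Gbp3 held overlapping ISRE-like matches at 45 and 39 bases and a C/EBP-like match at 98 bases. Of 27025 promoters of this length, 1.65% held the NF-kB-like letters, 10.8% the C/EBP-like and 3.46% the ISRE-like letters. Among the 180 genes with a promoter that rose in liver only the shares were 6.11%, 12.2% and 8.33%, and among the 131 that fell in WAT only they were 7.63%, 13.7% and 1.53%. Of the 14 that rose in liver and fell in WAT, 0 held the NF-kB-like, 2 the C/EBP-like and 1 the ISRE-like letters. Of the 17 that rose in both organs, 0 held the NF-kB-like letters, and 4 held the C/EBP-like and 4 the ISRE-like letters. These are descriptions of letters in a window and were not tested.

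Other genes called in opposite directions were an acute-phase carrier and genes of leukocyte recruitment. Orm2 (chr4:63362449-63365878), which encodes an orosomucoid of plasma, was 6.25 to 21.9 CPM (median 14.3) in vehicle livers and 20.8 to 106 CPM (median 53.9) in PTP-r livers. Its WAT level was 1.62 to 4.49 CPM (median 2.28) under vehicle and 0.622 to 2.47 CPM (median 1.35) under PTP-r. The groups overlapped slightly in liver and more in WAT, and the organ difference was 2.87 (SE 0.34, edgeR adjusted p 1.46e-06); orosomucoid genes are near-identical copies, so reads may be split among them. Ccl2 (chr11:82035571-82037453), the chemokine that draws monocytes, rose from a median of 0.78 CPM (0.305 to 1.47) to 2.72 CPM (1.9 to 4.99) in liver, without overlap. In WAT its median was 6.0 CPM (1.52 to 33.4) under vehicle and 3.11 CPM (1.05 to 22.6) under PTP-r, and all 12 PTP-r libraries lay below the vehicle mean of their own sex. These medians mix sexes that differed in level. Female WAT had 1.52 to 6.0 CPM under vehicle and 1.05 to 3.09 CPM under PTP-r, and male WAT had 18.2 to 33.4 CPM and 3.14 to 22.6 CPM. S100a8, a calcium-binding protein of neutrophils and monocytes, was 0.0796 to 0.588 CPM in vehicle livers and 0.643 to 1.49 CPM in PTP-r livers. In female WAT it was 0.607 to 2.85 CPM under vehicle and 0.338 to 1.28 CPM under PTP-r, with overlap. In male WAT it was 3.53 to 13.1 CPM and 1.2 to 2.4 CPM, without overlap.

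Ccr2, Ccl7 and Cxcr4 were also called in opposite directions, up in liver and down in WAT with the sexes averaged. The organ difference was 1.63 (SE 0.24, edgeR adjusted p 6.86e-05) for Ccr2, the receptor of Ccl2. Its median was 2.41 CPM in vehicle and 4.27 CPM in PTP-r livers against 38.5 and 27.6 CPM in WAT. In female livers Ccr2 was 2.11 to 4.31 CPM under vehicle and 2.67 to 5.01 CPM under PTP-r, with wide overlap. In male livers it was 1.4 to 2.47 CPM and 4.16 to 7.98 CPM, without overlap. Ccl7, a chemokine gene next to Ccl2, differed by 2.80 and Cxcr4, the receptor of Cxcl12, by 1.72. Cxcr4 in WAT rested on females, with a log2 effect of -1.17 there and 0.04 in males. Fitted alone, WAT did not pass for Ccl2 or Ccl7 (edgeR adjusted p 0.056 and 0.077).

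Genes that went down in liver and up in WAT numbered 8. The most significant was Gm44220 (chr6:93241720-93244206), a locus without a settled coding status in the annotation, which fell by 0.93 in liver and rose by 0.71 in WAT on the log2 scale. Crls1 (chr2:132846666-132866785), the cardiolipin synthase of the inner mitochondrial membrane, was 65.9 to 87.3 CPM (median 74.9) in vehicle livers and 50.6 to 81.6 CPM (median 59.9) in PTP-r livers. Its WAT level was 19.7 to 39.4 CPM (median 26.3) under vehicle and 20 to 49.4 CPM (median 35.6) under PTP-r. The groups overlapped in both organs, and the difference was -0.60 (SE 0.11, edgeR adjusted p 0.000951). Gstt3, a glutathione transferase, differed by -0.85, Srr, which makes D-serine, by -0.39, and Hoxa5, a homeobox factor, by -1.05.

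Acute-phase genes showed higher liver effects than WAT effects without exception among those called. Of 28 tested, 10 passed for the organ difference, all with the liver effect above, against 2.99% of all genes. This list and those below were chosen with earlier results of these data known, so a share above that of all genes is not separate support. The shares of all genes, for every list, were 2.3% rising and 1.69% falling in liver, and 6.93% rising and 5.36% falling in WAT. Of the 28 acute-phase genes 10 rose and 0 fell in liver, and 2 rose and 7 fell in WAT. With each organ fitted alone 16 rose in liver and 0 in WAT, and 0 rose in WAT without the libraries that carried other tissues. The list median was 0.32 in liver and 0.09 in WAT on the log2 scale, where the medians over all genes were -0.03 and 0.03. Serpina3n (chr12:104406729-104414329), a serine protease inhibitor, shows the pattern carried by WAT: its level fell from 364 to 531 CPM (median 448) to 179 to 375 CPM (median 267), while liver had 517 to 730 CPM (median 613) under vehicle and 570 to 882 CPM (median 687) under PTP-r and no call in the joint fit (edgeR adjusted p 0.047 with liver fitted alone). In WAT 1 female PTP-r library overlapped the vehicle range of its sex and 0 male ones did. The difference was 0.84 (SE 0.13, edgeR adjusted p 9.1e-05). Lbp, which hands endotoxin to immune cells, fell by 0.79 in WAT (liver effect 0.29, called only with liver fitted alone). Hp, the hemoglobin scavenger haptoglobin, was named after its values were seen; it rose by 0.52 in liver and fell by 0.59 in WAT, and all 12 PTP-r livers lay above and all 12 PTP-r WAT libraries below the vehicle mean of their sex.

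Liver rises in acute-phase genes did not all come with a called difference. Saa1, a plasma apolipoprotein of inflammation, was 20.3 to 96.1 CPM (median 48.2) in vehicle and 64.3 to 1290 CPM (median 250) in PTP-r livers, and at most 1.2 CPM in WAT. Saa2 had medians of 20.7 and 117 CPM in liver and at most 0.832 CPM in WAT. Both rose in liver (2.65 and 2.70), but at this WAT level the organ difference had intervals of -2.72 to 3.86 and -2.02 to 4.24; the copies are near-identical, so their counts are less sure. Lcn2, an iron-siderophore binder of innate defence, rose by 2.51 in liver, and its difference of 1.10 (-0.66 to 2.87) was not called, with 1 WAT PTP-r library at 187 CPM against a median of 4.14. It was called without female PTP-r library 9 of WAT (2.501) and without male PTP-r library 1 of WAT (2.49).

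**Figure D2:**
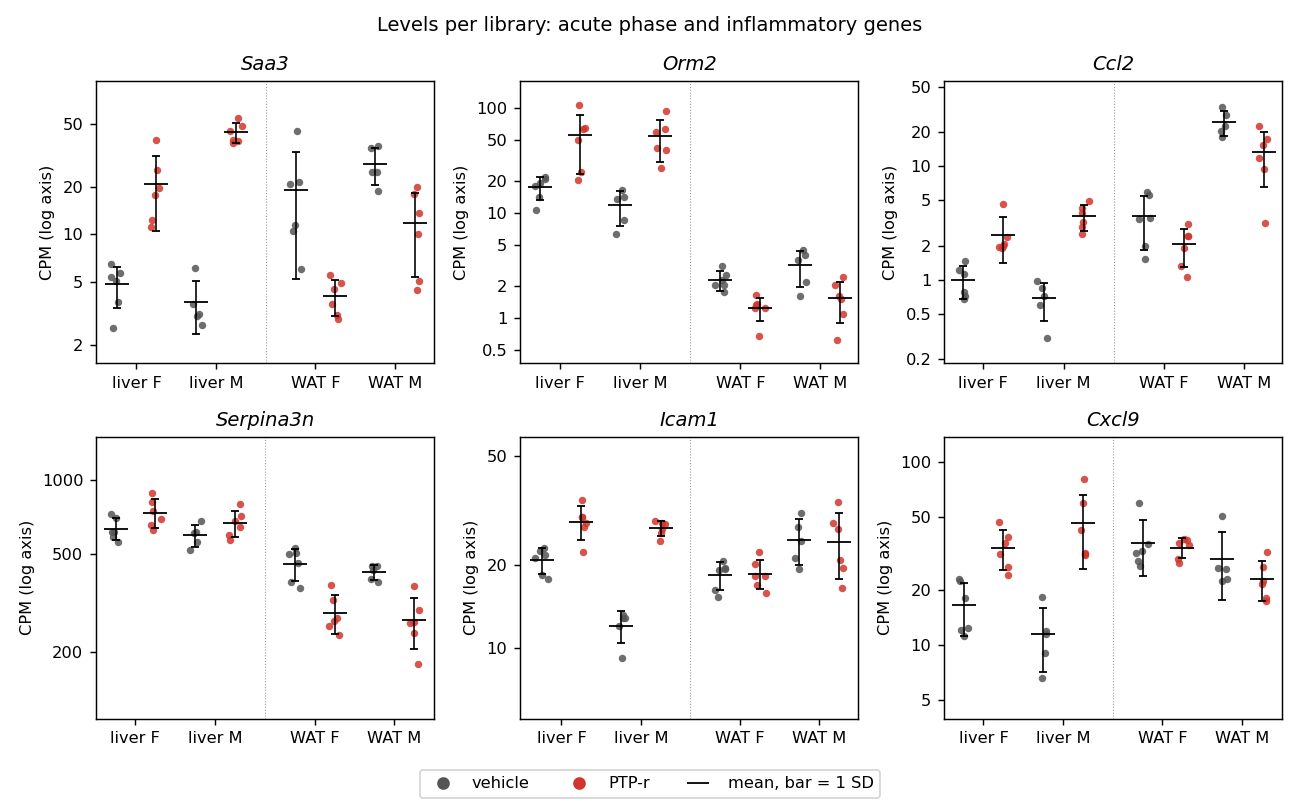
Levels of 6 genes in CPM on log axes, 1 point per library, by organ and sex (F female, M male) with vehicle in grey and PTP-r in red; horizontal bars are means and whiskers 1 SD over 5 or 6 libraries. Saa3 and Orm2 move up in liver and down in WAT in both sexes, Serpina3n separates mainly in WAT, and Icam1 and Cxcl9 separate mainly in liver.

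NF-kB targets and chemokines rose in liver and did not follow in WAT. Of 21 NF-kB and cytokine genes tested, 11 rose and 0 fell in liver, 0 rose and 1 fell in WAT, and 10 passed for the organ difference, all with liver above. Icam1 (chr9:21015985-21028817), the endothelial adhesion molecule for leukocytes, was 9.21 to 23.1 CPM (median 17.8) in vehicle and 22.3 to 34.6 CPM (median 28.3) in PTP-r livers. In WAT it was 15.3 to 31.1 CPM (median 19.6) and 15.9 to 34 CPM (median 19.9). The liver groups overlapped only between 22.3 and 23.1 CPM and the WAT groups overlapped throughout, with a difference of 0.82 (SE 0.13, edgeR adjusted p 0.000191). Tnfaip3, an inhibitor of NF-kB signalling that is itself an NF-kB target, differed by 0.93, and Cxcl2, a neutrophil chemokine, by 3.14 from medians of 0.179 and 1.18 CPM in liver. The liver count fell to 7 without the libraries that carried other tissues.

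Among 25 chemokines and receptors 13 passed for the organ difference, all with liver above; 11 rose in liver and 5 fell in WAT (2 with WAT fitted alone). Effects had opposite signs in the organs for 19 of the 25, against 8966 of 19135 genes. Cxcl9 (chr5:92321347-92328079), an interferon-gamma-induced chemokine for T cells, rose from 6.6 to 23.0 CPM (median 12.0) to 24.2 to 80.5 CPM (median 33.8) in liver, with no overlap. Its WAT level was 22.2 to 59.6 CPM (median 28.6) under vehicle and 17.3 to 37.7 CPM (median 28.8) under PTP-r. The organ difference was 1.74 (SE 0.26, edgeR adjusted p 6.32e-05). Nos2, the inducible nitric oxide synthase, differed by 2.31 from a low liver level (medians 0.104 and 0.32 CPM), while its WAT effect of -0.42 was not called.

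Myeloid markers moved apart between the organs, though few were called in WAT. Of 23 macrophage markers 5 rose in liver, 1 fell in WAT and 9 passed for the organ difference, all with liver above. Of 16 genes of lipid-associated macrophages, the phagocytes that gather around dying fat cells, 8 rose in liver, 0 were called in WAT and 8 passed for the difference; in WAT 3 fell without the libraries that carried other tissues and 1 with WAT fitted alone. Gpnmb (chr6:49036546-49070929), a lysosomal glycoprotein of these cells, was 0.0677 to 0.75 CPM (median 0.342) in vehicle livers and 0.576 to 12.8 CPM (median 5.53) in PTP-r livers, but 4.6 to 1100 CPM and 3.0 to 1580 CPM in WAT, where the spread was far wider than any shift. Lgals3, the lectin galectin-3, was 2.13 to 7.29 CPM (median 5.73) and 7.54 to 18.1 CPM (median 13.3) in liver without overlap, and 65.3 to 830 CPM (median 194) and 39.1 to 845 CPM (median 91.3) in WAT. These pooled WAT values of Gpnmb and Lgals3 mix the sexes, as every female library lay below every male library of the same treatment. Lgals3 in WAT was 65.3 to 194 CPM under vehicle and 39.1 to 82.5 CPM under PTP-r in females. In males it was 356 to 830 CPM and 100 to 845 CPM. The organ difference was 4.31 (SE 0.84, edgeR adjusted p 0.00204) for Gpnmb and 2.00 (SE 0.33, edgeR adjusted p 0.000326) for Lgals3. Gpnmb and Trem2, a lipid receptor of these cells with a difference of 1.89, lost the call with limma voom, under which 4 of the 16 genes passed for the difference and 4 rose in liver. The macrophage count in liver was 13 with liver fitted alone and 3 without the libraries that carried other tissues.

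Summed marker levels did not move alike in all lists and sexes. The macrophage markers had medians of 644 CPM in vehicle and 631 CPM in PTP-r female livers, and of 306 CPM (223 to 372) and 491.5 CPM (346 to 709) in male livers. In WAT their medians were 1331 and 905 CPM in females and 3462 and 2894 CPM in males, with overlap in both sexes. The lipid-associated macrophage list summed to medians of 2066 and 2070 CPM in liver, and the chemokine list to 783 and 755 CPM. Such a sum follows its most abundant members. In PTP-r livers Gpnmb and Lgals3 had medians of only 5.53 and 13.3 CPM. Neutrophil markers, of which 7 of 15 passed the filter on low counts, summed to 2.64 to 8.71 CPM and 7.82 to 14.7 CPM in liver and to 14 to 58.7 CPM and 12.4 to 61.9 CPM in WAT. In bulk tissue more cells of a type and more RNA per cell cannot be told apart, here and in every result below, and the part of cell numbers in these effects was not tested. The B and plasma cell list had 0 calls for the difference, and 1 of its 15 tested genes rose in WAT, near the 6.93% of all genes that rose there.

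MHC class II and cell cycle genes followed the same sign with smaller support. Among 12 genes of MHC class I presentation 8 rose in liver, against 2.3% of all genes. Of these 12, 1 fell in WAT and 2 passed for the difference with liver above. None of 9 MHC class II genes was called in liver and 1, H2-DMb1, which loads peptides onto class II molecules, fell in WAT (by 0.69), yet 5 passed for the difference, all with liver above. That count was 3 with limma voom, 1 without the libraries that carried other tissues and 8 without those high in B and plasma cell markers, where 5 fell in WAT. Of 28 cell cycle genes 8 rose in liver, 1 fell in WAT and 10 passed for the difference. Signs were opposite in 26, against 8966 of 19135 genes, and genes of a list are not independent replicates. Tpx2, a spindle assembly factor, had liver medians of 0.552 CPM under vehicle and 1.13 CPM under PTP-r and WAT medians of 4.73 and 3.84 CPM. Cdk1, the mitotic kinase, differed by 1.29 and Aurkb, a kinase of the chromosomal passenger complex, by 1.47. Without the libraries that carried other tissues 5 of the 28 passed, and with limma voom 3 rose in liver.

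**Figure D3:**
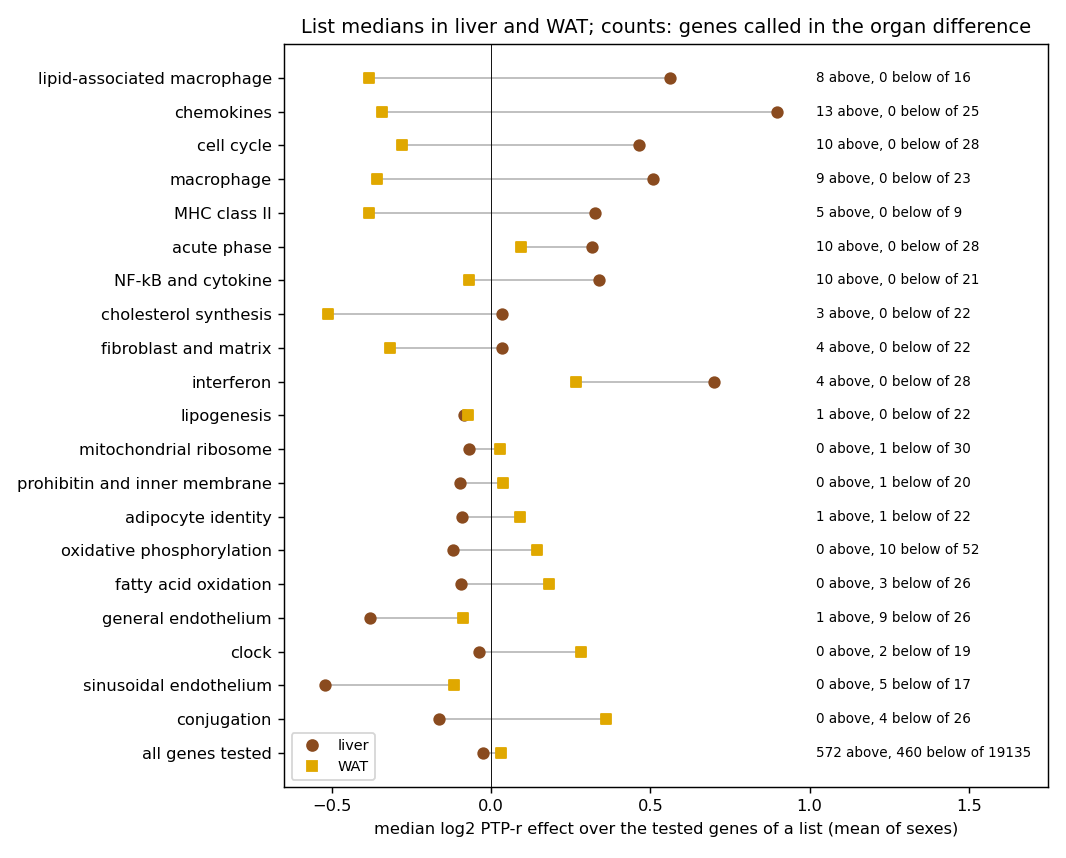
Median log2 PTP-r effect over the tested genes of 20 lists and over all genes, in liver (circles) and WAT (squares), with the number of genes called for the organ difference at right (above: liver effect higher). Inflammatory and cell cycle lists have the liver median to the right of the WAT median, and endothelial, conjugation and oxidative lists have it to the left; the interferon medians are 0.70 and 0.27.

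Many endothelial genes fell in liver, and few were called in WAT. Of 26 genes of endothelium in general, 15 fell and 0 rose in liver, 1 fell in WAT, and 9 passed for the organ difference with the liver effect below, against 2.4% of all genes; 1, Ecscr, passed in the other direction and was named after its values were seen, but 0 did so with limma voom or without the libraries that carried other tissues. Jam2 (chr16:84774123-84825928), a junctional adhesion molecule, was 7.28 to 16.4 CPM (median 11.4) in vehicle livers and 4.75 to 8.09 CPM (median 7.12) in PTP-r livers. In WAT it was 56.3 to 73.4 CPM (median 64.3) and 46.8 to 89.1 CPM (median 67.6). All 12 PTP-r livers lay below the vehicle mean of their sex, and the difference was -0.88 (SE 0.12, edgeR adjusted p 9.67e-06). Flt1 (chr5:147561604-147726011), a receptor of VEGF, fell from a median of 11.7 CPM (10 to 16.8) to 7.82 CPM (5.08 to 10.9) in liver, with overlap between 10 and 10.9 CPM, and had WAT medians of 103 and 109 CPM. Its difference was -0.66 (SE 0.14, edgeR adjusted p 0.00318). Ntn4, a netrin of vessel basement membranes, differed by -0.84 and Aqp1, a water channel, by -0.56. Outside the list, Npr1, a natriuretic peptide receptor, differed by -0.56 and Cd300lg, a glycoprotein of capillaries, by -0.87.

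Sinusoidal endothelium gave a like count in liver. Of 17 markers 8 fell in liver and 5 passed for the difference, all with liver below; without the libraries that carried other tissues 3 passed, and Kdr, the main VEGF receptor (difference -0.51), a member of both endothelial lists, was among those lost. With liver fitted alone 13 of the 17 fell. Flt4, a receptor of lymphatic growth factors also found in sinusoids, differed by -0.60, Bmp2, a sinusoidal signal to hepatocytes for iron balance, by -0.53 and Gpr182, a scavenger of chemokines, by -0.65. The summed markers of endothelium in general were 382 to 627 CPM in vehicle and 277 to 428 CPM in PTP-r livers, and 2186 to 2779 and 1803 to 2704 CPM in WAT. The summed sinusoidal markers were 424 to 767 CPM in vehicle and 280 to 515 CPM in PTP-r livers, and 530 to 796 and 406 to 787 CPM in WAT. For Pecam1, a pan-endothelial adhesion molecule, and Dnase1l3, a nuclease of sinusoids, the liver fall (by 0.50 and 0.85) was called and the organ difference was not, with intervals of -0.59 to -0.12 and -1.57 to 0.06.

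A few vessel genes fell in both organs alike. Pcdh12 (a protocadherin of endothelial junctions) fell by 0.63 in liver and by 0.70 in WAT; its medians were 6.83 and 4.27 CPM in liver and 21 and 13 CPM in WAT, and all 12 PTP-r libraries of each organ lay below the vehicle mean of their sex. The difference of 0.06 had an interval of -0.20 to 0.33. Plxnd1, a semaphorin receptor of vessels, fell by 0.40 and 0.50 with a difference of 0.11 (-0.13 to 0.34), and Adam23, a membrane protein without protease activity, fell by 0.66 and 0.79 with a difference of 0.14 (-0.25 to 0.53). Of the 47 genes that fell in both organs, 19 were called in both when each organ was fitted alone.

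Interferon-induced genes were the group that rose in both organs. Of 28 tested, 21 rose in liver and 9 in WAT, 0 fell in either, and 4 passed for the organ difference. Irf7 (chr7:141262706-141266481), the transcription factor that amplifies type I interferon, was 34 to 59.9 CPM (median 47) in vehicle and 51.6 to 103 CPM (median 75.0) in PTP-r livers. In WAT it was 12.4 to 23.4 CPM (median 18) and 20.7 to 36 CPM (median 26.5). All 12 PTP-r libraries of each organ lay above the vehicle mean of their sex. The effects were 0.79 (SE 0.10) and 0.65 (SE 0.10), and the difference of 0.14 had an interval of -0.15 to 0.43. Oasl2, an antiviral protein related to the oligoadenylate synthetases, rose by 0.93 and 0.57, Ifi213, of the DNA-sensing HIN family, by 1.00 and 0.89, and Oas2, a double-stranded RNA sensor, by 0.80 and 0.44; reads of these families can be shared between near copies.

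Where interferon-induced genes differed, the liver effect was larger. Mx1, an antiviral GTPase, rose by 0.99 in liver and had a WAT effect of -0.17, a difference of 1.17 (SE 0.21, edgeR adjusted p 0.00109). Gbp2, a guanylate-binding GTPase, differed by 0.85, Ifit2, which binds viral RNA, by 0.70 and Xaf1, a pro-apoptotic protein, by 0.50. Xaf1 lost the call without the libraries that carried other tissues, and without male vehicle library 3 of WAT alone. Gbp3 rose by 0.70 and 0.42, and its difference of 0.28 (-0.04 to 0.60) was not called. The WAT count of 9 was 6 without the libraries that carried other tissues, 5 with WAT fitted alone and 4 with limma voom.

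Most matrix genes called in WAT fell. Of 22 fibroblast and matrix genes, 8 fell and 1 rose in WAT, where 5.36% of all genes fell and 6.93% rose. In liver 1 rose and 0 fell, near the 2.3% and 1.69% of all genes. For the organ difference 4 passed, all with liver above, against 2.99% of all genes. Sparc (chr11:55394500-55423183), a secreted collagen-binding protein abundant in fat, fell from 2400 to 4760 CPM (median 3910) to 1660 to 3110 CPM (median 2530) in WAT, and its liver level was 37.4 to 66.2 CPM (median 58.2) and 49.6 to 74.1 CPM (median 57.7). All 12 PTP-r WAT libraries lay below the vehicle mean of their sex, and the difference was 0.88 (SE 0.15, edgeR adjusted p 0.000394). Col4a1 and Col4a2, the chains of basement membrane collagen, differed by 0.75 and 0.87. Col6a1, a chain of the microfibrillar collagen around adipocytes, fell by 0.52 in WAT with a liver effect of -0.002. Summed fibroblast and matrix markers were 11370 to 19500 CPM in vehicle and 7428 to 14140 CPM in PTP-r WAT, and 3591 to 4717 and 3491 to 4703 CPM in liver.

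Genes of cholesterol synthesis that were called in WAT fell there, where 5.36% of all genes fell. Of 22 tested, 0 were called in liver, against 3.99% of all genes, so this count of 0 says little about the list. In WAT 8 fell and 0 rose, and the list median was -0.51 there against 0.03 in liver; 17 fell with WAT fitted alone and 5 with limma voom. Lss (the cyclase that forms lanosterol) was 30 to 70.8 CPM (median 47.1) in vehicle WAT and 19.8 to 46 CPM (median 32.1) in PTP-r WAT, with overlap and 1 PTP-r library above the vehicle mean of its sex. Its liver medians were 63.1 and 104 CPM without a call, and the difference was 0.90 (SE 0.24, edgeR adjusted p 0.0223). Dhcr7, a late reductase of the pathway, differed by 0.85, a call lost with limma voom, without the filter on low counts and in 16 of 46 fits that left out a library. In all, 3 genes of the list passed for the difference, each with liver above; without the libraries that carried other tissues 6 did. Scd2, a desaturase of fatty acids, fell by 0.92 in WAT (liver -0.08, not called), and its difference of 0.84 lost the call without those libraries.

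Mitochondrial and oxidative genes leaned upward in WAT and downward in liver by small amounts. Of 52 nuclear genes of oxidative phosphorylation 12 rose in WAT, 0 were called in liver and 10 passed for the difference, all with liver below. Of all genes 6.93% rose in WAT, 3.99% were called in liver and 2.4% passed with liver below. Effects had opposite signs for 48 of the 52, against 8966 of 19135 genes, and genes of a list are not independent replicates. The list medians were 0.14 in WAT and -0.12 in liver. Sdhb and Sdha, subunits of succinate dehydrogenase, differed by -0.43 and -0.39 and Ndufa5, of complex I, by -0.41. Sdhb lost the call without the libraries that carried other tissues. In liver 7 of the 52 fell with liver fitted alone and 3 with limma voom. The WAT count depended on the fit: 0 of the 52 were called with WAT fitted alone, 1 with limma voom, 4 without the libraries that carried other tissues and 18 without those high in B and plasma cell markers, and the last setting gave 25 for the difference.

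Among 26 genes of fatty acid oxidation 7 rose and 1 fell in WAT, where 6.93% of all genes rose and 5.36% fell. In liver 0 were called, against 3.99% of all genes, so this count of 0 says little about the list. For the difference 3 passed with liver below, against 2.4% of all genes. Eci1, an isomerase for unsaturated fatty acids, was 52.4 to 98.4 CPM (median 69) in vehicle and 47.9 to 135 CPM (median 84.4) in PTP-r WAT, and 141 to 204 CPM and 129 to 183 CPM in liver. The groups overlapped in both organs, and the difference was -0.41 (SE 0.11, edgeR adjusted p 0.0218). Eci1 lost this call with sex and library number as a block across organs. Without the libraries that carried other tissues 1 of the 26 passed and 4 rose in WAT, and with WAT fitted alone 3 rose. Without the libraries high in B and plasma cell markers 5 passed for the difference.

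**Figure D4:**
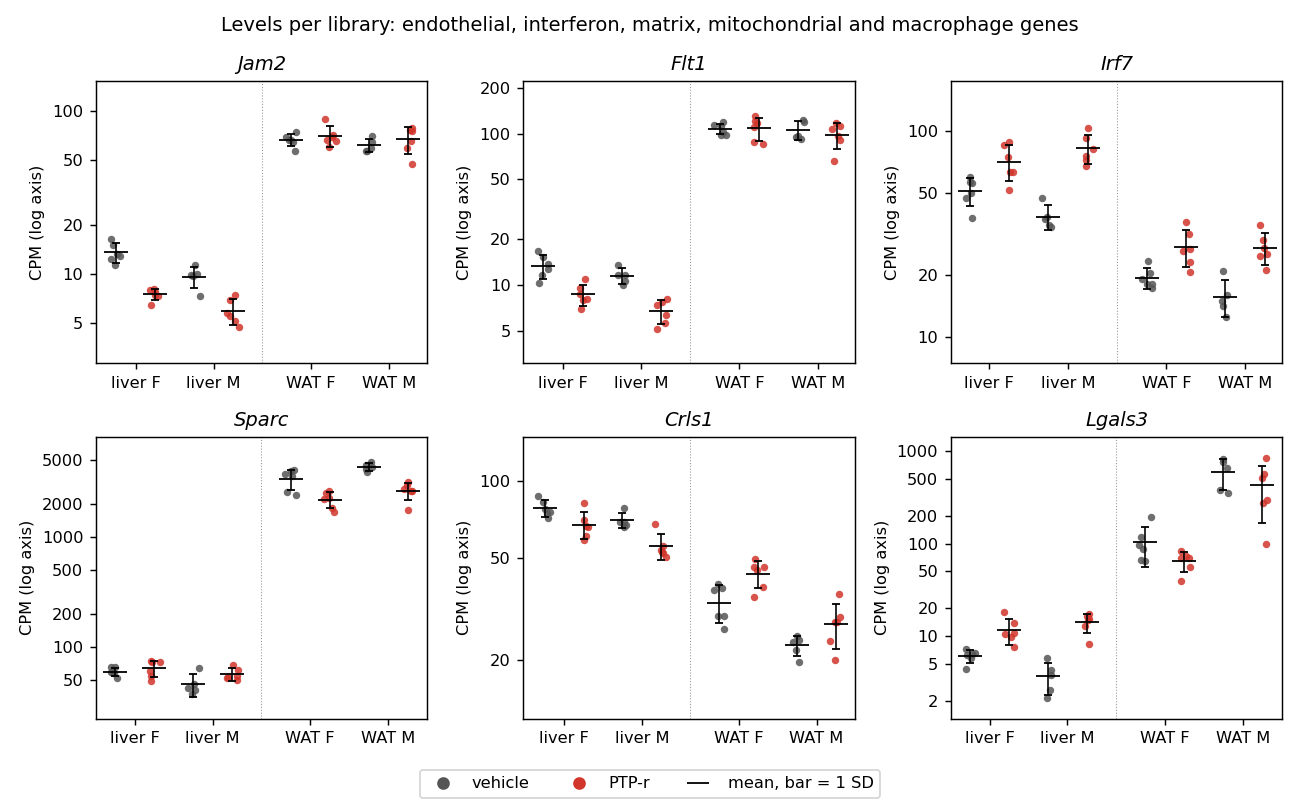
Levels of 6 genes in CPM on log axes, 1 point per library, by organ and sex (F female, M male) with vehicle in grey and PTP-r in red; horizontal bars are means and whiskers 1 SD over 5 or 6 libraries. Jam2 and Flt1 fall in liver, Irf7 rises in both organs, Sparc falls in WAT, Crls1 falls in liver and rises in WAT, and Lgals3 rises in liver.

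Other metabolic genes that rose in WAT had no call in liver. Vnn1 (chr10:23894688-23905343), the pantetheinase that releases cysteamine, was 2.61 to 6.5 CPM (median 4.19) in vehicle and 4.44 to 16.3 CPM (median 8.56) in PTP-r WAT and had liver medians of 129 and 131 CPM. Its difference was -1.17 (SE 0.23, edgeR adjusted p 0.00204). Net1, an activator of the GTPase RhoA, differed by -1.11 and Pck1, the cytosolic enzyme of gluconeogenesis and of glycerol synthesis in fat, by -0.96. Gpx3, a secreted glutathione peroxidase, rose by 0.93 in WAT, from a median of 277 CPM to 546 CPM, with a liver effect of 0.10. Irs1, the docking protein of the insulin receptor, rose by 0.54 in WAT and had a liver effect of -0.34 without a call, a difference of -0.88 (SE 0.18, edgeR adjusted p 0.00397). Apoe, a lipoprotein ligand, rose by 0.37 in WAT, with a difference of -0.48. Its call was lost without the libraries that carried other tissues and without male PTP-r library 1 of WAT. With sex and library number as a block across organs it was lost as well.

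Conjugating enzymes and clock genes that passed for the difference had the liver effect below. Of 26 conjugating enzymes 2 fell in liver, 5 rose in WAT (2 with WAT fitted alone) and 4 passed for the difference, all with liver below. Of all genes 1.69% fell in liver, 6.93% rose in WAT and 2.4% passed with liver below. Gstt1, a glutathione transferase, rose by 0.51 in WAT, and Gsta4, which clears lipid aldehydes, by 0.93. Gsta2 differed by -4.07, but its WAT level was at most 1.14 CPM. Its call was lost with limma voom and without male PTP-r library 1 or female PTP-r library 4 of WAT. With sex and library number as a block across organs it was lost as well. Of 19 clock genes 4 rose in WAT, 0 were called in liver and 2 passed for the difference with liver below. Hlf, an output factor of the clock, differed by -0.87.

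Genes close to the peptide's named target and to fat cell function were read whatever their values. Phb was 70.8 to 98.6 CPM (median 86.9) in vehicle and 73.6 to 91.3 CPM (median 80.4) in PTP-r livers, and 59.1 to 83.4 CPM (median 67.3) and 51.7 to 82.1 CPM (median 66.2) in WAT. In male livers 4 of the 6 PTP-r values lay below all 5 vehicle values; in female livers and in WAT of both sexes the groups overlapped. Neither organ was called, and the difference of -0.03 had an interval of -0.17 to 0.12. Phb2, its partner in the membrane ring, had medians of 231 and 217 CPM in liver and 77.9 and 84.3 CPM in WAT, with a difference of -0.17 (-0.30 to -0.04) and an edgeR adjusted p of 0.108. All 6 male PTP-r livers (202 to 230 CPM) lay below all 5 male vehicle livers (231 to 248 CPM) for Phb2, while the female liver groups overlapped. Of 20 genes of the prohibitin complex and the inner membrane 0 were called in liver, 2 rose and 1 fell in WAT, where 6.93% of all genes rose and 5.36% fell, and Clpp, a matrix protease, passed for the difference (-0.27), a call lost under both other scalings and without most single libraries. Anxa2, a membrane-bound annexin, fell by 0.46 in WAT with a difference of 0.26 (-0.18 to 0.70). Cd36, the fatty acid translocase, was not called in either organ, and its difference was -0.09 (-0.64 to 0.45).

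Fat cell genes cannot be compared between organs where liver lacks them. Lep, the satiety hormone, fell by 1.06 in WAT, from 854 to 3130 CPM (median 2150) to 223 to 1790 CPM (median 1030), and had a liver median of 0. Adipoq had WAT medians of 2380 and 2260 CPM without a call. Cidec, a lipid droplet protein, had a difference of -0.91 (-1.87 to 0.04). Ucp1, the uncoupling protein of brown and beige fat, was at most 0.228 CPM in vehicle WAT. Among female PTP-r WAT libraries, library 1 had 287 CPM and library 4 had 317 CPM, the others had 2.86, 2.94, 0.144 and 0.0751 CPM, and male ones had at most 1.12 CPM. High values were thus in a pair of libraries, of which library 1 also carried muscle markers, and liver values were at most 0.0557 CPM, so no organ difference is given. Of 14 thermogenic genes 8 rose in WAT, 3 with WAT fitted alone and 1 with limma voom, and 1, Ppargc1a, a coactivator of mitochondrial genes, passed for the difference (-0.73). That call was lost under 5 of 11 alternatives, limma voom and leaving out the libraries that carried other tissues among them, and in 23 of 46 fits that left out a library.

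Split by sex, the organ difference passed for 16 genes in females (0.0836% of genes tested) and for 498 in males (2.6%), and 9 were shared. The difference between the sexes in this organ difference passed for 0 genes with edgeR, with 1171 at an unadjusted p under 0.05, and for 27 with DESeq2, so a difference between the sexes was not shown by the larger male count. Of the 16 female genes 14 had the same sign in males, and of the 498 male genes 429 had the same sign in females. Saa3 differed by 4.33 (SE 0.52) in females and 4.80 (SE 0.54) in males, Orm2 by 2.53 and 3.21, Serpina3n by 0.88 and 0.81 and Jam2 by -0.94 and -0.82, each called in both sexes. Icam1 differed by 0.45 in females, where it was not called, and by 1.20 in males, and Cxcl9 by 1.12 and 2.36. Actc1 and Apobec2, muscle genes named after their values were seen, were called in females, where 4 of the 5 libraries high in muscle markers lie, and their part in this was not tested. Counts within a sex moved with single libraries: they ranged from 8 to 117 in females and from 164 to 918 in males when each library was left out in turn.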

How the data were processed

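The authors deposited, per library, whole-number read counts per gene, unstranded and for each strand. Per the submitters' processing notes they used STAR 2.4.0i, HTSeq and mm10; the annotation release is not given in the sources used here. Counts of the strand holding most stranded reads were used; rows that name no gene (20.97% to 28.92% of reads in liver, 18.42% to 28.71% in WAT) were left out. Gene names and coordinates came from GENCODE on GRCm38, the same build.

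All 46 libraries entered 1 fit with a coefficient per group (edgeR 4.0.16 quasi-likelihood test, TMM, filterByExpr by group at its count and total minima of 10 and 15, Benjamini-Hochberg threshold 0.05, R 4.3.3), checked on simulated counts. An SE is the log2 value divided by the square root of F, and intervals use a t quantile of 2.024. CPM are counts per TMM-scaled library total; the marker sums and the check of Alb and Adipoq use all genes in the total. Alternatives were DESeq2 1.42.0, limma 3.58.1 (voom), other scalings, filters, strand and blocks, and libraries left out. Named genes were the 10 smallest p each way at 5 CPM or more in both organs, the 4 smallest each way under 1 CPM in 1 organ, up to 8 opposite and 8 alike, up to 4 per list and fixed genes. Members and lists were chosen with earlier results of these data known. Libraries of 1 group differed beyond counting noise in all 110 pairs. Results for some named genes are not reported here.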

Additional observations from a re-analysis of the deposited data

Results flagged for a closer look

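The PTP-r effect differed between liver and WAT for 1032 genes in the test of the difference itself (edgeR), and 27 genes passed in opposite directions. Among 160 groups of 5 or 6 libraries checked over the genes shown per library, 14 held a library whose gap to the nearest other was wide for the group's range by Dixon's 95% values, which chance gives in about 1 of 20 groups. In liver these were Saa3 at 6.1 CPM in male vehicle library 3, Ccl2 at 4.67 CPM in female PTP-r library 1 and S100a8 at 0.184 CPM, the lowest, in female vehicle library 6. Crls1 was high in male PTP-r library 2 (67.9 CPM) and male vehicle library 9 (78.3 CPM), and Phb2 in female vehicle library 7 (253 CPM) and male vehicle library 10 (248 CPM). Ucp1 in liver was 0.0238 CPM in female PTP-r library 11 and 0.0446 CPM in female vehicle library 2, and in WAT 0.197 CPM in female vehicle library 6 and 1.12 CPM in male PTP-r library 2. All other libraries of those liver groups had 0 CPM, so any nonzero value there meets the rule whatever its size. Cxcl9 in WAT was 59.6 CPM in female vehicle library 7 and 50.3 CPM in male vehicle library 12, and Gpnmb was 129 CPM in female vehicle library 6.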

How the results depend on the processing

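The organ difference gave 1032 calls, from 761 (limma voom) to 1455 (DESeq2) over the alternatives except 591 without a filter on low counts, and 779 to 1429 with each library left out. Liver gave 764 calls, 504 without the filter, 488 without the libraries that carried other tissues, 1205 fitted alone and 527 to 984 with a library left out; limma voom gave 489 up and 605 down against 440 and 324. WAT gave 2353 calls, 1305 with limma voom (491 up, 814 down), 1390 without the filter, 1479 without carried tissues, 1258 alone and 1373 to 2778 with a library left out. The female difference gave 16 calls, 193 with DESeq2, 8 with limma voom, 7 without the filter and 8 to 117 with a library left out, highest without liver PTP-r library 11. The male difference gave 498, 858 with DESeq2, 204 without the filter, 216 without carried tissues, 884 without libraries high in B and plasma cell markers (left out after seeing the data) and 164 to 918 with a library left out, lowest without WAT vehicle library 3 and highest without WAT PTP-r library 7. The sex difference gave 0, 27 with DESeq2, 1 without carried tissues and 0 to 0 with a library left out. Of 23 same-numbered pairs of liver and WAT libraries 8 correlated above 0.1 (median r 0.0586, range -0.0912 to 0.248). In 11 the liver library correlated best with its own number among the 5 or 6 WAT libraries of its sex and treatment. The share of such matches expected by chance was not computed, so pairing is not settled. The number had no term in the main fit, which treated all libraries as unpaired. The same numbers carry the same sex and treatment in both organs, and the labels do not say whether a number marks 1 animal. With that replicate number as a block the organ difference gave 903 calls, females 4 and males 454, and Eci1, Apoe, Clpp and Gsta2 lost the call. Without the filter Col6a1, Dhcr7, Scd2, Xaf1, Apoe, Clpp and Ppargc1a lost it. Of 86 named genes called, 67 kept the call throughout and 0 reversed. The cause of these shifts was not tested. Depth limits genes under 1 CPM in 1 organ.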
